A study of Mus musculus with 32 samples.

Results

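Tubular injury marker genes are genes that injured kidney tubule cells switch on. The 8 genes described here are *Havcr1*, *Lcn2*, *Krt20*, *Timp1*, *Serpina10*, *Spp1*, *Clu* and *Vcam1*, taken by name from a table of read counts for 53700 genes in 32 mouse kidneys. All 8 were in the table. The kidneys came from male C57BL/6 mice of the iKspCre-Pkd1del line, in which tamoxifen activates a Cre recombinase driven by the Ksp-cadherin promoter of tubule cells, so that *Pkd1* is deleted in tubule cells. The wildtype group was 8 mice of this line that got no tamoxifen, collected at 109 days of age. The PKD group was 12 mice given 150 mg/kg tamoxifen on days 18 and 19, which deletes exons 2 to 11 of *Pkd1*, and collected at 95 days of age. The PKD + Salsalate group was 12 such mice, also 95 days old, that ate chow with 2.5 g/kg salsalate, a salicylate prodrug, from day 81 for 2 weeks. Age, tamoxifen and the deletion differ together between the wildtype mice and both PKD groups and cannot be told apart. The mice of both PKD groups had been picked for a similar, mild cystic phenotype.

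The kidney tubule reabsorbs most of what the glomerulus filters. A tubule cell that is injured loses much of its transport program, dedifferentiates, and makes a set of secreted and surface proteins that healthy tubules make little of. Several of these proteins reach the urine, which is why they serve as biomarkers of acute kidney injury, and in polycystic kidney disease the epithelium that lines and surrounds cysts is known to make some of them as well. The markers are known injury genes picked with earlier results of these kidneys known, and which values decided the choice is not recorded. They are treated here as chosen by their differences from wildtype and their co-variation among cystic kidneys, which are given as a description without tests. Salsalate against PKD was tested across all genes, but earlier results of that contrast were known as well.

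A kidney had 11193136 to 109807664 reads counted on genes (median 17242801). Levels below are CPM, counts scaled to a common total with TMM factors. *Pkd1* itself, counted over the whole gene, had a mean ± SD of 68.7 ± 10.9 CPM in the 8 wildtype kidneys, 92.1 ± 15.1 CPM in the 12 PKD kidneys and 92.7 ± 15.1 CPM in the 12 treated kidneys, so the count was higher, not lower, in the groups with the deletion, and a count over the whole gene does not check the loss of exons 2 to 11. Proximal tubule markers were abundant in every kidney, with a summed level of 28089 to 54171 CPM over 23 genes. PKD replicate 10 stood apart from the other cystic kidneys with 1930 CPM of *Alb*, the albumin gene of the liver, against at most 4.44 CPM in the other cystic kidneys. Of the wildtype libraries, 5 have names with a final R and 3 do not, and no cystic kidney has such a name. Where a call differs between these sets, this is said for the marker, partner and other injury genes. For the cell type lists it is mostly given as counts.

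*Havcr1* (ENSMUSG00000040405, GRCm39 chr11:46625907-46670405, plus strand) encodes kidney injury molecule, a surface receptor for phosphatidylserine with which proximal tubule cells take up dying neighbours. Its level was 0.446, 0.819 and 1.78 CPM in the lowest, median and highest wildtype kidney, which stands for 6 to 28 reads. In PKD kidneys the same values were 27.9, 56.7 and 89.1 CPM, and in PKD + Salsalate kidneys 16.1, 42.2 and 144 CPM. No cystic kidney came near the wildtype range, and the fitted difference was 5.90 on the log2 scale (SE 0.42) for PKD against wildtype, or 59.6-fold, the number 2 rise of 13961 genes tested. For PKD + Salsalate it was 5.77 (SE 0.42), the largest rise of all. In whole kidney RNA, more cells of a type and more RNA per cell cannot be told apart, here and for the genes that follow.

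*Lcn2* (ENSMUSG00000026822, chr2:32274645-32278264, minus strand) encodes a secreted lipocalin that captures bacterial iron carriers and is measured in urine as NGAL. Wildtype kidneys held 1.22, 1.59 and 2.45 CPM (lowest, median, highest), PKD kidneys 25.8, 45.1 and 57.3 CPM and PKD + Salsalate kidneys 18.2, 33.8 and 75.0 CPM. The lowest cystic kidney was thus far above the highest wildtype kidney. The log2 difference from wildtype was 4.68 (SE 0.27) in PKD, or 25.6-fold, and 4.38 (SE 0.27) in PKD + Salsalate.

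*Krt20* (ENSMUSG00000035775, chr11:99319227-99328985, minus strand) encodes a keratin of intestinal and urothelial surface cells. Wildtype kidneys held 0.0454, 0.175 and 0.889 CPM, or 1 to 22 reads per kidney, so its wildtype level is known only roughly. PKD kidneys held 4.84, 7.10 and 19.4 CPM and PKD + Salsalate kidneys 1.53, 3.58 and 11.7 CPM. Here too the groups did not overlap with wildtype, and PKD replicates 9 and 12, at 16.6 and 19.4 CPM, stood above the other 10 PKD kidneys. The log2 difference was 4.57 (SE 0.48) in PKD and 3.75 (SE 0.49) in PKD + Salsalate. Urothelium, which lines the renal pelvis, also makes *Krt20*. The summed level of 5 uroplakin genes (*Upk1a*, *Upk1b*, *Upk2*, *Upk3a* and *Upk3b*), picked as urothelial markers after values were seen, was 13.7 to 30.6 CPM in wildtype, 13.4 to 23.0 in PKD and 14.9 to 29.3 in PKD + Salsalate kidneys. The part of urothelium in the *Krt20* level was not tested.

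*Timp1* (ENSMUSG00000001131, chrX:20736316-20740976, plus strand) and *Serpina10* (ENSMUSG00000061947, chr12:103580578-103597716, minus strand) encode secreted protease inhibitors. TIMP1 blocks matrix metalloproteinases, and the *Serpina10* product, best known from the liver, blocks coagulation factor Xa together with protein Z. *Timp1* was at 0.272, 0.474 and 0.862 CPM in wildtype, 6.76, 10.4 and 15.3 CPM in PKD and 3.31, 9.28 and 18.6 CPM in PKD + Salsalate kidneys. *Serpina10* was at 0.259, 0.590 and 1.08 CPM in wildtype, 10.4, 16.1 and 23.8 CPM in PKD and 7.19, 11.1 and 28.8 CPM in PKD + Salsalate kidneys. Neither gene had a cystic kidney within the wildtype range. The log2 difference between PKD and wildtype was 4.41 (SE 0.33) for *Timp1* and 4.79 (SE 0.29) for *Serpina10*, and between PKD + Salsalate and wildtype it was 4.29 (SE 0.33) and 4.47 (SE 0.29). The highest PKD value of *Serpina10* belonged to PKD replicate 10, the kidney with *Alb*, and without that kidney the *Serpina10* difference was 4.74. Exons of *Serpina10* share 1508 of 4900 bases with exons of *Ppp4r4* on the other strand. The counts are stated to be by strand, but whether the stated setting is the one that matches the library kit is not clear from the methods, so reads in the shared bases could be split wrongly. *Ppp4r4* stayed between 4.65 and 8.14 CPM over all 32 kidneys.

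*Spp1* (ENSMUSG00000029304, chr5:104582165-104589235, plus strand) encodes osteopontin, a secreted phosphoprotein that binds integrins and CD44, and *Clu* (ENSMUSG00000022037, chr14:66190200-66218999, plus strand) encodes clusterin, a secreted chaperone that shields cells from misfolded protein and complement. Both were well expressed without injury. *Spp1* was at 223, 317 and 488 CPM in wildtype, 1134, 2007 and 2491 CPM in PKD and 993, 1463 and 3237 CPM in PKD + Salsalate kidneys. *Clu* was at 149, 209 and 313 CPM in wildtype, 225, 371 and 498 CPM in PKD and 228, 282 and 536 CPM in PKD + Salsalate kidneys. *Spp1* did not overlap between wildtype and cystic kidneys, while the lower cystic kidneys of *Clu* lay within the wildtype range. The log2 difference between PKD and wildtype was 2.50 (SE 0.20) for *Spp1* and 0.83 (SE 0.16) for *Clu*, the smallest of the 8.

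*Vcam1* (ENSMUSG00000027962, chr3:115903598-115923355, minus strand) encodes an adhesion molecule for leukocytes that activated endothelium carries and that tubule cells gain when they do not recover from injury. It was at 6.99, 8.12 and 16.6 CPM in wildtype, 20.4, 29.7 and 42.7 CPM in PKD and 14.7, 21.8 and 45.4 CPM in PKD + Salsalate kidneys. PKD kidneys did not overlap with wildtype, but PKD + Salsalate replicates 2 and 12, at 14.7 and 14.8 CPM, lay within it. The log2 difference was 1.71 (SE 0.20) in PKD and 1.26 (SE 0.20) in PKD + Salsalate.

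**Figure D1:**
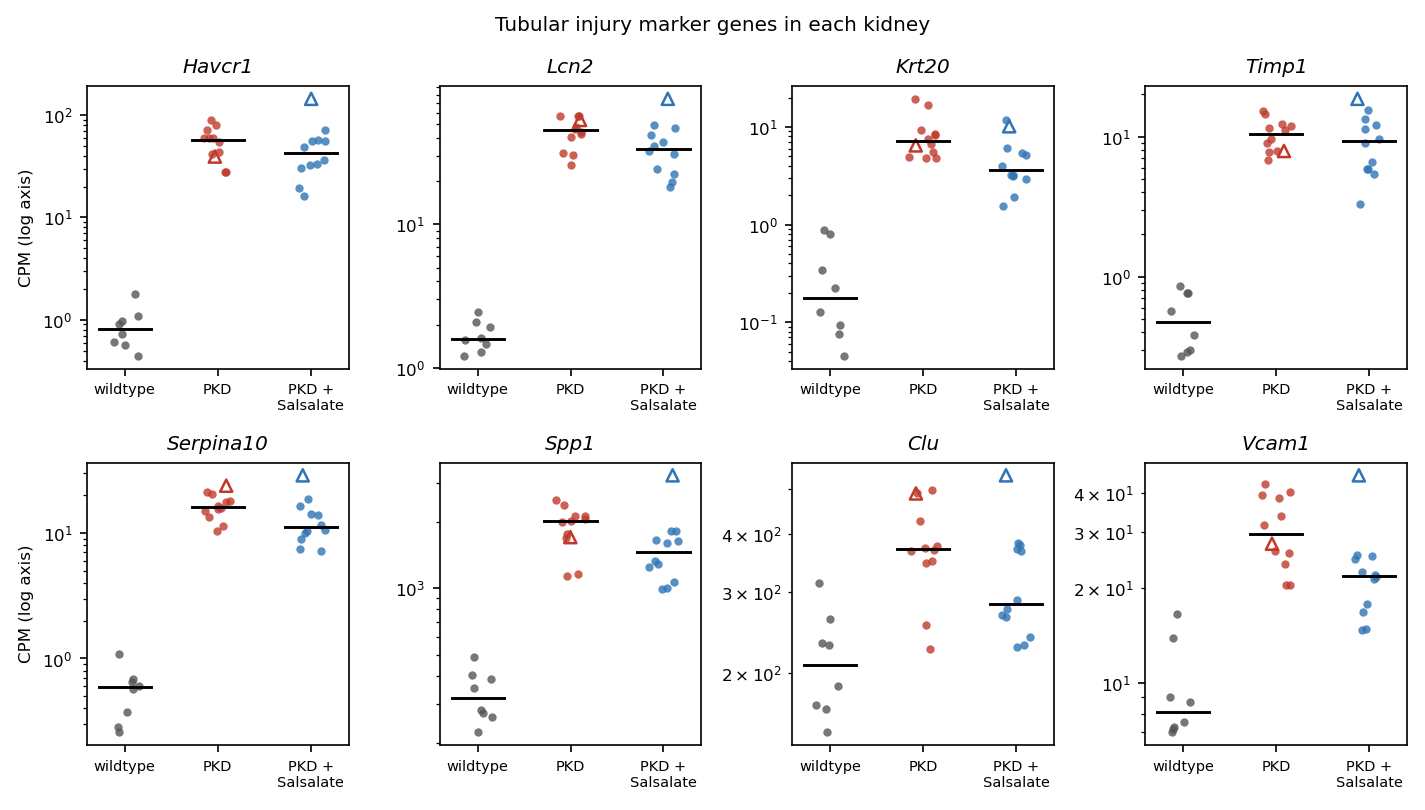
Level of each marker gene in every kidney, in CPM on a log axis that differs by gene, for 8 wildtype, 12 PKD and 12 PKD + Salsalate kidneys. Each point is a kidney and the bar is the group median. Open triangles are PKD replicate 10 and PKD + Salsalate replicate 11, and the latter is the highest treated kidney for every gene but *Krt20*.

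In all, 7 of the 8 genes had every PKD kidney above every wildtype kidney, *Clu* being the exception, where 5.21% of the 13961 genes tested did. For PKD + Salsalate kidneys it was 6 of 8, without *Clu* and *Vcam1*, where 4.46% of the genes tested did. The median log2 difference from wildtype over the 8 genes was 4.49 in PKD and 4.02 in PKD + Salsalate, and over the genes tested it was -0.01 in each. The genes passed the filter on low counts, log2 CPM above 1 in 25% of the kidneys or more, and *Havcr1*, *Lcn2*, *Krt20*, *Timp1* and *Serpina10* could pass it only through their cystic kidneys. These counts describe genes chosen for a difference of this kind and support nothing beyond that.

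Levels of different genes were compared per kilobase of exon. In PKD kidneys *Spp1* came first with 663 ± 148 CPM per kb (SD, n = 12), followed by *Clu* with 67.6 ± 15.4, *Havcr1* with 21.1 ± 7.51 and *Lcn2* with 16.9 ± 4.13. Below these came *Timp1* with 5.35 ± 1.41, *Krt20* with 4.43 ± 2.42, *Vcam1* with 3.43 ± 0.88 and *Serpina10* with 3.38 ± 0.80 CPM per kb. The ranges of mean ± SD overlapped between the neighbours *Havcr1* and *Lcn2*, and between each pair of the last 4. In wildtype kidneys the order was another, with *Vcam1* at 1.07 ± 0.40 CPM per kb (n = 8) next after *Spp1* (117 ± 31.5) and *Clu* (38.0 ± 9.88), and above *Lcn2* (0.65 ± 0.16) and *Havcr1* (0.34 ± 0.16).

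The wildtype libraries with names ending in R (n = 5) and the other wildtype libraries (n = 3) differed for some of the genes. *Clu* was 149 to 230 CPM in the former and 233 to 313 CPM in the latter, and *Timp1* was 0.297 to 0.862 CPM against 0.272 to 0.381 CPM. Against the 3 libraries without the ending, the log2 difference of PKD kidneys became 0.49 (SE 0.22) for *Clu* and 5.07 for *Timp1*, and that of PKD + Salsalate kidneys was 0.24 (SE 0.22) for *Clu*. Against the 5 with it, the values were 1.07 and 4.01. *Clu* in PKD kidneys (225 to 498 CPM) and in PKD + Salsalate kidneys (228 to 536 CPM) overlapped with the libraries without the ending. Against them its difference in PKD + Salsalate kidneys was about the size of its SE, so the rise of *Clu* depended on the wildtype set. The other 7 genes kept differences of at least 1.51 in PKD kidneys with either set.

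The 250 bases before the start of each gene's canonical transcript were searched on both strands for letters bound by factors of injured epithelium. Other starts of these genes were not searched. The TEAD hexamer GGAATG was in 4 of the 8 promoters and in 11.8% of 12899 promoters of the protein-coding genes tested, and the AP-1 site TGANTCA was in 1 of 8, *Vcam1*, and in 4.54% of them. TTCNNNGAA, bound by STAT factors, was in the *Serpina10* promoter and in 6.64% of all, and the kappaB consensus was in the *Lcn2* promoter and in 8.61% of all. The promoters of *Havcr1* and *Clu* held none of these, and no promoter of the 8 held the HNF4 site CAAAGTCCA, present in 0.341% of all. The *Lcn2* TEAD match lies within its kappaB match, and 2 of the 3 TEAD matches of *Krt20* overlap by 1 base. The 4 promoters with the TEAD hexamer and that of *Vcam1* are printed so that these matches can be seen, read from GRCm39 on the strand of the gene, 5' to 3', with matched letters in capitals. A match describes the letters and is not evidence of binding. They span chr2:32277810-32278059 (minus strand, *Lcn2*), chr11:99328986-99329235 (minus, *Krt20*), chrX:20736101-20736350 (plus, *Timp1*), chr5:104581915-104582164 (plus, *Spp1*) and chr3:115923348-115923597 (minus, *Vcam1*).
Lcn2: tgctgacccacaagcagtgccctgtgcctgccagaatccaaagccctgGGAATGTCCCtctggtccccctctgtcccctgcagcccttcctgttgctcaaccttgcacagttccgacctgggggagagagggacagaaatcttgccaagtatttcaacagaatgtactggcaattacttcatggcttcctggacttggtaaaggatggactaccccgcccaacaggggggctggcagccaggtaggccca
Krt20: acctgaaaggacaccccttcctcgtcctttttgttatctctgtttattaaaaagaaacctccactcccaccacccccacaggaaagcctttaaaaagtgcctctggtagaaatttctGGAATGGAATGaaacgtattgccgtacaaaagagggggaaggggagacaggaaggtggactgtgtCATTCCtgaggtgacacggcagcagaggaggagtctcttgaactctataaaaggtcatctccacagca
Timp1: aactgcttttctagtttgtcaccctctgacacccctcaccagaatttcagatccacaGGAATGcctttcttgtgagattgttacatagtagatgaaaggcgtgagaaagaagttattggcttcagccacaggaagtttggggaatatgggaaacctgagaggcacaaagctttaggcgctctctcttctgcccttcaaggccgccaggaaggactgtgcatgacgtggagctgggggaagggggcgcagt
Spp1: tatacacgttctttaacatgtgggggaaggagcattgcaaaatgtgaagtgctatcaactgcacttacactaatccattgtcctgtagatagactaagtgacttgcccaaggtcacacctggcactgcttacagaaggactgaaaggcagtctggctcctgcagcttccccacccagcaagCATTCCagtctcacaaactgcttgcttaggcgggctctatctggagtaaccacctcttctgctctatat
Vcam1: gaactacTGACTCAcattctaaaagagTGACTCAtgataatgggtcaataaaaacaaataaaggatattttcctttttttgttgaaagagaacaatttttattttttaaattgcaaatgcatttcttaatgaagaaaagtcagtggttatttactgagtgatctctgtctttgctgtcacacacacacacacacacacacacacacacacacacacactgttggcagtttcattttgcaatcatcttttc

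The next comparison asked whether the 2 weeks of salsalate changed the markers in cystic kidneys. None of the 8 passed the test, and each was lower by the fit. By edgeR's quasi-likelihood test with Benjamini-Hochberg adjustment over 13961 genes, 0 of the 8 had an adjusted p under 0.05, where 0.58% of genes did (81 genes), and 2 of the 8 had an unadjusted p under 0.05, where 10.3% of genes did. DESeq2's Wald test also called 0 of the 8. The largest difference was that of *Krt20*, -0.82 on the log2 scale (95% interval -1.42 to -0.23), or 0.565-fold, with an unadjusted p of 0.00839 and an adjusted p of 0.229, and 10 of 12 treated kidneys were below the PKD median. *Vcam1* followed with -0.45 (-0.78 to -0.12), or 0.732-fold, with an adjusted p of 0.244 and 11 of 12 treated kidneys below the PKD median.

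The other genes were closer to no change. *Serpina10* differed by -0.33 (-0.68 to 0.03, adjusted p = 0.548), *Lcn2* by -0.29 (-0.64 to 0.05, adjusted p = 0.613), *Spp1* by -0.28 (-0.61 to 0.05, adjusted p = 0.610) and *Clu* by -0.25 (-0.54 to 0.03, adjusted p = 0.582) in the same edgeR test. Without PKD replicate 10, its highest PKD kidney and the one with *Alb*, *Serpina10* was at -0.27 (adjusted p = 0.708 by edgeR). *Havcr1* differed by -0.12 (-0.62 to 0.37, adjusted p = 0.923) and *Timp1* by -0.12 (-0.53 to 0.29, adjusted p = 0.906). These intervals leave room for levels between 0.649-fold and 1.30-fold for *Havcr1*, and between 0.640-fold and 1.04-fold for *Lcn2*. The median over the 8 genes was -0.29, where it was -0.01 over all genes tested, and 46% of genes had a value above 0. The 8 values are not independent, since the genes move together among kidneys as described below.

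A single treated kidney bore on all of these values. PKD + Salsalate replicate 11 had the highest treated level of 7 of the 8 genes, with 144 CPM of *Havcr1* against at most 71.2 CPM in the other 11 treated kidneys, and 45.4 CPM of *Vcam1* against at most 25.4 CPM. It also had the highest summed macrophage and fibroblast markers of its group, 751 and 2117 CPM against medians of 486 and 1274, and the lowest summed proximal tubule markers, 28089 CPM against a median of 38099. Its depth (28386506 counts) and its share of alignments on genes (81.6%) were within the range of the other kidneys. Without it, *Vcam1* passed the edgeR test, at -0.59 (-0.88 to -0.29, adjusted p = 0.0279), where 1.62% of genes did, and over the leave-one-out fits its adjusted p was between 0.0279 and 0.412. *Krt20* was then at -0.98 (adjusted p = 0.0826) and *Havcr1* at -0.40 (adjusted p = 0.425) by edgeR. *Serpina10* was at -0.49 (adjusted p = 0.0835 by edgeR), or at -0.44 (adjusted p = 0.137 by edgeR) with PKD replicate 10 left out too. With only PKD + Salsalate replicate 11 left out, no other of the 8 passed. *Lcn2* moved to -0.44, *Spp1* to -0.42, *Clu* to -0.34 and *Timp1* to -0.25, and 6 of the 8 then had an unadjusted p under 0.05, where 13% of genes did. The labels give no reason to leave this kidney out. It was singled out by its high levels of these same genes. Lower estimates without it follow from that choice, so the values without it are no added evidence of a salsalate effect.

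**Figure D2:**
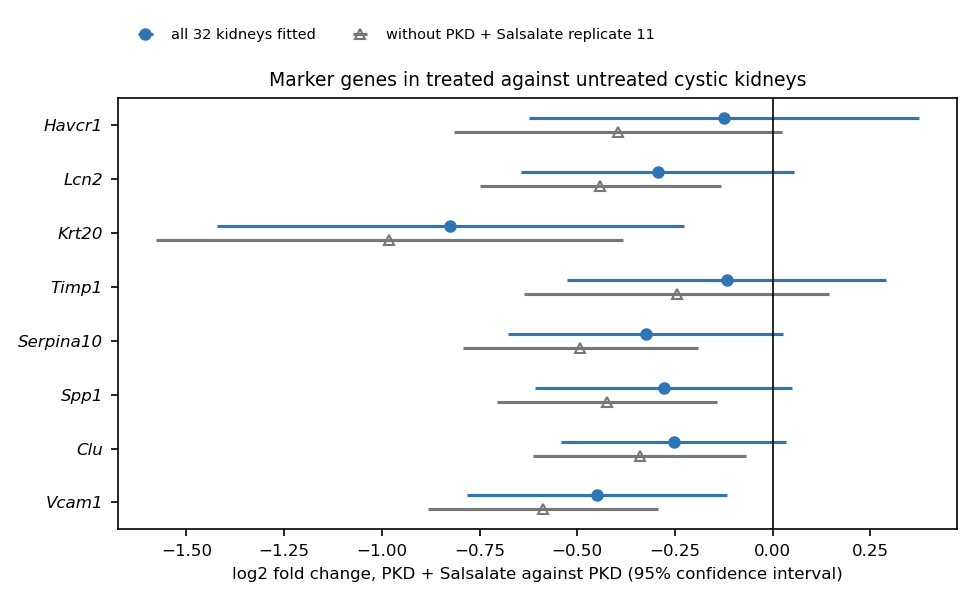
Log2 fold change of each marker gene in PKD + Salsalate against PKD kidneys with its 95% confidence interval, from the fit of all 32 kidneys (filled circles) and without PKD + Salsalate replicate 11 (open triangles). Every estimate is below 0, from -0.12 to -0.82 in the former, and the intervals of *Krt20* and *Vcam1* exclude 0 before adjustment for the number of genes tested. Without replicate 11 those of *Lcn2*, *Serpina10*, *Spp1* and *Clu* exclude 0 as well. Replicate 11 was singled out by its high levels of these genes, so lower estimates without it follow from that choice.

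Among kidneys of 1 group the markers varied more than most genes. The SD of log2 CPM among PKD kidneys was 0.54 for *Havcr1*, 0.65 for *Krt20* and between 0.35 and 0.38 for the other 6, where the median gene had 0.19, and 89.6% to 98.2% of genes varied less than these 8. Among PKD + Salsalate kidneys the SD was 0.38 for *Clu*, 0.44 for *Vcam1* and up to 0.86 for *Krt20*, where the median gene had 0.16, and 94.6% to 99.7% of genes varied less. These values include replicate 11. Without it the SD of CPM went from 8.10 to 3.99 for *Vcam1*, from 33.9 to 17.4 for *Havcr1* and from 3.16 to 2.82 for *Krt20*.

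The same kidneys were high or low for most of the genes. In the PKD group, replicate 6 was the lowest kidney for 7 of the 8 genes and replicate 3 was among the lowest 3 for 6 of them, while replicates 8 and 9 were among the highest 3 for 6 genes each and replicate 12 for 5. In the PKD + Salsalate group, replicates 2 and 12 were each the lowest for 4 genes, replicate 12 was among the lowest 3 for all 8, and replicate 4 was among the highest 3 for 7. PKD replicate 10 was uneven, the highest of its group for *Serpina10* and among the highest 3 for *Clu*, but among the lowest 3 for *Havcr1* and *Timp1*.

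**Figure D3:**
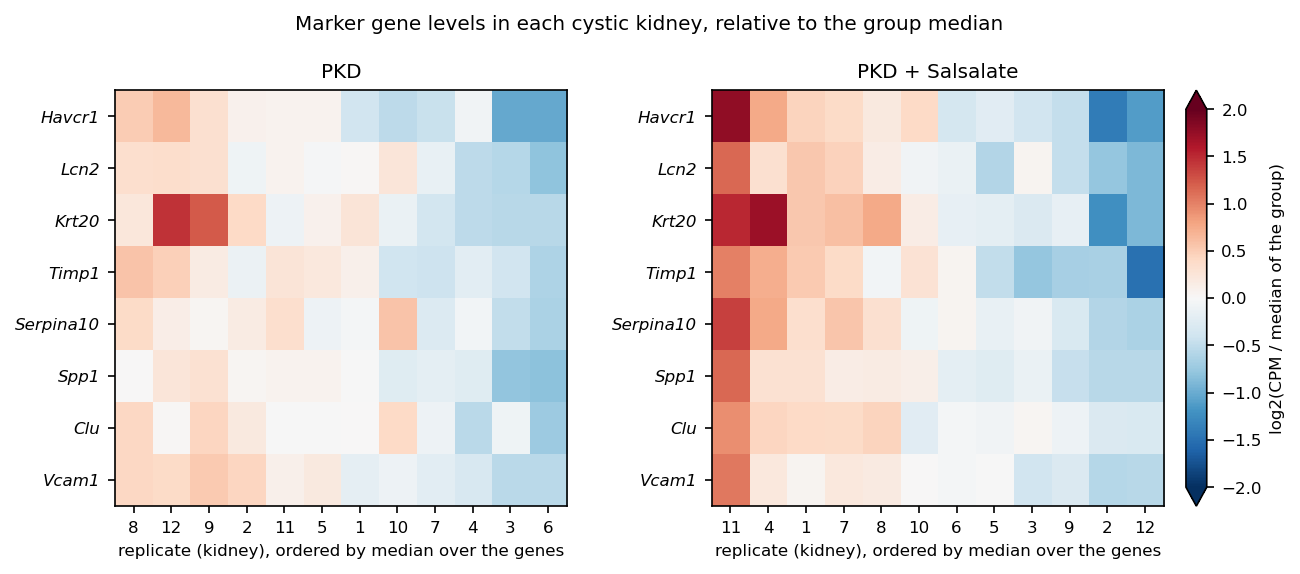
Marker genes in each cystic kidney, as the log2 ratio of its CPM to the median of its group, with 12 PKD kidneys on the left and 12 PKD + Salsalate kidneys on the right, each ordered by the median over the genes. Columns are mostly of 1 colour, red for kidneys high on most genes and blue for those low on most.

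Between pairs of the 8 genes, Pearson's r of log2 CPM over the 24 cystic kidneys, with group means removed, was between 0.67 (*Timp1* and *Clu*) and 0.94 (*Havcr1* and *Spp1*), with a median of 0.84 over 28 pairs, and Spearman's rho had a median of 0.82. Within the PKD group alone r was between 0.39 (*Krt20* and *Serpina10*) and 0.90 (*Havcr1* and *Vcam1*), with a median of 0.75. Within the PKD + Salsalate group it was between 0.78 and 0.97, and without replicate 11 of that group between 0.71 and 0.95, with medians of 0.90 and 0.87. The co-variation was therefore present in each group and did not rest on the kidney with the highest levels. For comparison, between 0.373% (*Krt20*) and 1.06% (*Vcam1*) of the 13952 other genes had an r over 0.8 with a given marker, and the median r was between -0.01 and 0.05. All points share their libraries and the genes were picked as a set, so these values carry no p.

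**Figure D4:**
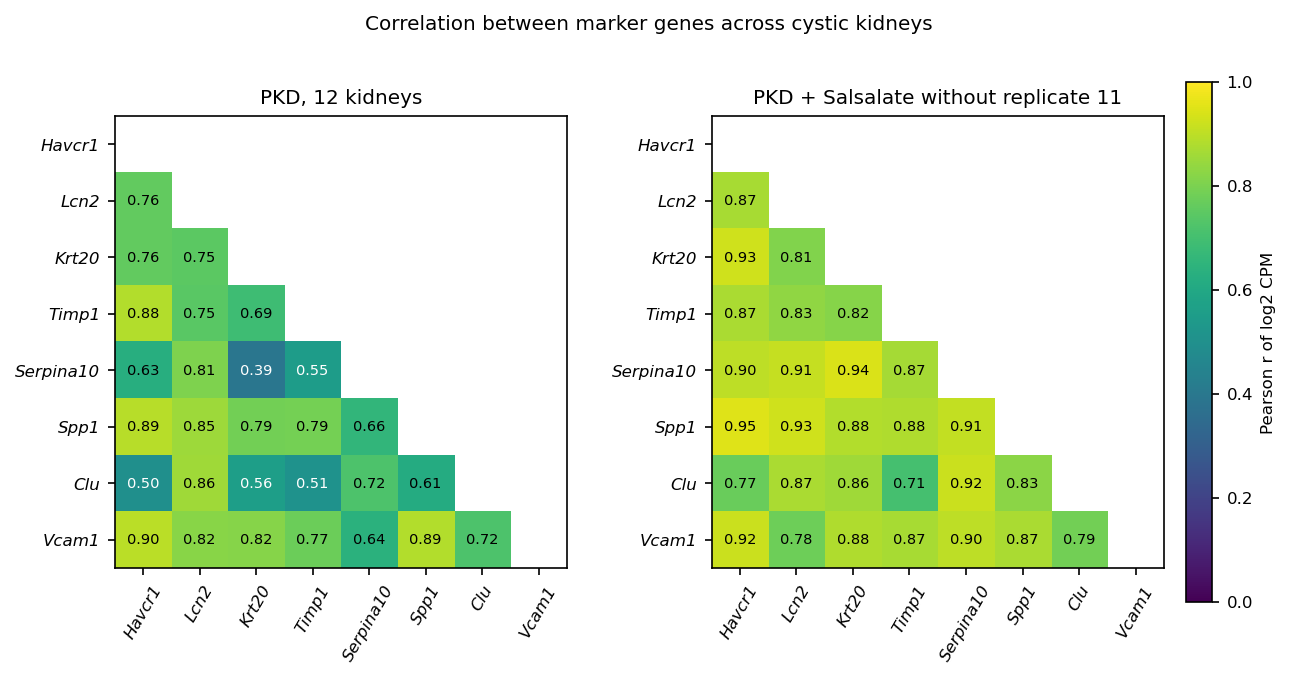
Pearson's r of log2 CPM for each pair of marker genes over 12 PKD kidneys (left) and over the 11 PKD + Salsalate kidneys other than replicate 11 (right), on a colour scale from 0 to 1. All 28 pairs are positive in both groups, with the lowest r, 0.39, between *Krt20* and *Serpina10* in PKD kidneys.

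For each marker the 3 genes outside the 8 with the highest r over the 24 cystic kidneys were listed. *Havcr1* was most like *Litaf*, *Aldh1a2* and *Col8a1*, each with r = 0.93 or 0.94. *Aldh1a2*, an enzyme that makes retinoic acid, was also among the 3 for *Lcn2* (r = 0.91) and *Serpina10* (r = 0.89). *Cd44*, a receptor of osteopontin and hyaluronan, was among the 3 for *Krt20* (r = 0.89) and *Vcam1* (r = 0.93), and *Il1rn*, the interleukin receptor antagonist, among those for *Lcn2* (r = 0.89) and *Krt20* (r = 0.88). The closest gene of *Vcam1* was *Aoc1* (r = 0.95), an amine oxidase, that of *Spp1* was *Slc34a2* (r = 0.93), a phosphate transporter, that of *Clu* was *Col18a1* (r = 0.93), a basement membrane collagen, and that of *Timp1* was *Pdgfb* (r = 0.90).

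Genes that act with each marker or are related to it were then compared between PKD and wildtype kidneys by the same edgeR test. In this test 24.1% of all genes tested were higher and 25% lower. Some genes are in several of the lists, so the counts are not separate from each other. Of the other phosphatidylserine receptors and TIM family genes, 4 of 5 tested were higher and 1 was lower. *Havcr2* was higher by 1.08 (log2, SE 0.16) and *Axl* by 0.80 (SE 0.10), whereas *Mertk* was lower by the fit, at -0.36 (SE 0.12). Of the receptors of *Lcn2*, the endocytic receptor *Lrp2* was higher by 0.58 (SE 0.16) and *Slc22a17* was at -0.09 (adjusted p = 0.423). The *Lrp2* call rested on the wildtype libraries ending in R, which held 468 to 748 CPM, since the other 3 held 1111 to 1418 CPM, within the PKD range of 781 to 1599 CPM, and against them the difference was 0.02 (SE 0.14). Of 5 simple epithelial keratins that *Krt20* could pair or group with, 3 were higher, led by *Krt18* with 0.95 (SE 0.10) and *Krt19* with 0.89 (SE 0.15), and *Krt7* and *Krt23* did not pass.

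Of metalloproteinases, other binding partners and related TIMP inhibitors listed for *Timp1*, 8 of 10 tested, of 13 listed, were higher and 0 lower. *Mmp3*, a stromelysin, was higher by 3.05 (SE 0.27), from 0.378 ± 0.160 CPM (SD, n = 8) to 2.95 ± 0.834 CPM (n = 12), and its level in PKD + Salsalate kidneys was 2.97 ± 1.13 CPM (n = 12). Neither *Proz*, which encodes protein Z, nor *Serpinc1*, which encodes antithrombin, passed among the partners of *Serpina10*, with -0.02 (adjusted p = 0.904) and 1.56 (adjusted p = 0.0778) by edgeR. Without PKD replicate 10 *Serpinc1* was lower, at -0.79 (SE 0.23). Of the receptors of *Spp1*, 8 of 9 were higher and 0 lower, with *Cd44* at 1.93 (SE 0.19) and the epithelial integrin *Itgb6* at 0.89 (SE 0.16). Of the receptors and partners of *Clu*, 4 of 5 were higher and 1 was lower. *Trem2*, a lipid receptor of macrophages, was higher by 2.64 (SE 0.32) and *Bax* was at -0.30 (SE 0.12). Of the integrins and regulators listed for *Vcam1*, together with *Icam1*, which encodes another adhesion molecule, 6 of 8 were higher and 0 lower. *Icam1* was at 0.88 (SE 0.09), *Itga4* at 0.68 (SE 0.14) and *Rela* at 0.26 (SE 0.05).

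Other calls of partners also depended on the set of wildtype libraries. Against the 5 ending in R, 30.7% of genes tested were higher in PKD and 28.9% lower, and against the other 3 it was 20.9% and 19.9%. *Mertk* went from -0.58 (SE 0.11) against the former to 0.10 (SE 0.12) against the latter, and *Bax* from -0.51 (SE 0.11) to 0.11 (SE 0.14), so neither was lower with the latter. *Itgb6* went from 1.27 (SE 0.16) to 0.42 (SE 0.18) and *Rela* from 0.32 (SE 0.06) to 0.15 (SE 0.07), and both missed the threshold with the latter (adjusted p = 0.0619 and 0.0737 by edgeR). *Slc22a17* went from 0.10 to -0.37 (SE 0.09) and *Krt23* from -0.02 to -0.59 (SE 0.22), both lower with the latter, where *Krt7* was higher by 0.30 (SE 0.10). Of the receptors of *Spp1*, 8 and 6 of 9 were higher with the 2 sets, and of the genes listed for *Timp1*, 7 and 7 of 10. Of those for *Vcam1* it was 6 and 7 of 8. Of those for *Havcr1* it was 4 and 3 of 5, where *Timd2* went from 0.52 (SE 0.09) to 0.08 (SE 0.09). Of those for *Clu*, which include *Lrp2*, it was also 4 and 3 of 5. *Mmp3*, *Cd44*, *Trem2*, *Icam1*, *Krt18*, *Krt19*, *Axl*, *Havcr2* and *Itga4* were higher with either set. The genes behind similar counts differed as well. *Itgav* and *Cd63* passed as higher only against the libraries ending in R, and *Mmp12*, *Nfkb1* and *Itgb7* only against the others.

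Other genes reported for injured or failed-repair tubule cells were mostly higher too. Of 34 tested, 28 were higher, 1 was lower and 5 did not pass. The keratins listed for *Krt20*, and *Cd44*, *Itgb6* and *Icam1*, are in this list as well as in those above. *Ccl2*, a chemokine for monocytes, was higher by 2.95 (SE 0.26), *Sox9*, a transcription factor of regenerating tubules, by 2.46 (SE 0.27), *Cdkn1a*, a cell cycle inhibitor, by 1.84 (SE 0.15) and *Cd44* by 1.93. The fibrinogen genes *Fgb* and *Fgg*, with 5.26 (SE 1.21) and 2.77 (SE 0.53), depended in size on PKD replicate 10, which held 282 CPM of *Fgb* against 1.15 to 3.58 CPM in the other PKD kidneys. Without that kidney they were higher by 1.88 (SE 0.41) and 1.78 (SE 0.26), and the count was again 28 higher and 1 lower. *Pigr*, the polymeric immunoglobulin receptor, was lower, at -0.51 (SE 0.15), but at -0.09 (adjusted p = 0.719 by edgeR) against the wildtype libraries not ending in R. The count was 27 higher and 1 lower (*Pigr*) against those ending in R, and 28 and 1 (*Krt23*) against the others. These counts are close, but the genes behind them differ. *Hmox1*, *Itgb6* and *Fga* passed as higher only against those ending in R, and *Wfdc2*, *Ccn2*, *Krt7* and *Nupr1* only against the others. With salsalate against PKD, 0 of the 34 passed, and the smallest adjusted p was 0.0517, for *Pigr* at -0.54.

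For other proteins measured in urine or blood as signs of kidney damage, the RNA of 11 genes was tested, of 14 listed. Of these 11, 4 were higher and 1 was lower in PKD against wildtype. *Timp2* was higher by 0.55 (SE 0.10), *B2m* by 0.56 (SE 0.09) and *Igfbp7* by 0.42 (SE 0.09), and the growth factor *Egf*, made in the distal tubule, was lower by the fit at -1.28 (SE 0.14), from 904 ± 265 CPM (SD, n = 8) to 373 ± 54.2 CPM (n = 12). *Rbp4* was higher by 1.69 (SE 0.68) with PKD replicate 10 and was at -0.27 (SE 0.24) without it. The count without that kidney was again 4 higher and 1 lower, though *Rbp4* no longer passed. *Umod* and *Cst3*, both in clinical use, did not pass, with 0.15 (adjusted p = 0.314) and 0.13 (adjusted p = 0.0525). With the wildtype libraries ending in R, 5 were higher and 3 lower, and with the others 3 and 3. *Ntn1* reversed, higher by 1.13 (SE 0.14) with the former and lower, at -0.53 (SE 0.16), with the latter. *Hgf* went from -0.21 (SE 0.22) to 1.09 (SE 0.24), higher only with the latter. *Il18*, at -0.54 (SE 0.15), and *Mif*, at -0.28 (SE 0.11), were lower only with the former. *Igfbp7* was at 0.06 (adjusted p = 0.549 by edgeR) with the latter, and *Umod* was higher by 0.49 (SE 0.10) with the former and at -0.29 (SE 0.12), lower, with the latter. *Timp2*, *B2m* and *Egf* kept their calls with either set, but *Rbp4* did not pass with either.

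Several of the markers are also made by cells other than tubule cells, so markers of those cells were read in the same kidneys. Macrophage markers were higher in PKD for 14 of 14 genes, with a summed level of 174 to 286 CPM in wildtype, 411 to 654 in PKD and 368 to 751 in PKD + Salsalate kidneys. Fibroblast markers were higher for 11 of 11, with 413 to 678, 1048 to 1666 and 989 to 2117 CPM. Neutrophils are a classical source of *Lcn2*, and their defining genes were at or near 0, with *S100a8* at most 0.718 CPM, *Mpo* at most 0.0580 CPM and *Ly6g* at most 0.0635 CPM in any kidney. *S100a9* reached 0.843 CPM in PKD and 1.48 CPM in PKD + Salsalate kidneys. The only 1 of the 11 neutrophil genes abundant enough to test, *Csf3r*, was higher in PKD by 1.27 (SE 0.18), and the sum over the 11 was 2.36 to 5.39 CPM in wildtype, 5.77 to 8.94 in PKD and 4.13 to 9.76 in PKD + Salsalate kidneys. Endothelial markers, of a cell type that makes *Vcam1*, were higher for 4 of 11 and lower for 4, with summed levels of 833 to 1081, 880 to 1011 and 832 to 1026 CPM. Liver genes were higher for 5 of 12 tested with PKD replicate 10, and for 1, with 7 lower, without it. Proximal tubule markers were higher for 3 and lower for 6 of 23, and markers of the distal nephron and collecting duct for 1 and 2 of 10. Both counts turned on the wildtype set. Against the libraries ending in R, 13 proximal genes were higher and 4 lower, and against the others 0 were higher and 15 lower, and for the distal genes it was 6 and 2 against 0 and 5. Macrophage genes were higher for 14 of 14 with either set, and fibroblast genes for 9 and 10 of 11. The endothelial count also differed, with 4 of 11 higher and 5 lower against the libraries ending in R, and 5 and 1 against the others. For liver genes, with PKD replicate 10 kept, 2 of 12 and 0 of 11 were higher.

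The level of each marker was then set beside the mean z-score of these lists over the 24 cystic kidneys with group means removed. Since the variation of the 8 genes among these kidneys was known when they were picked, these correlations are a description and carry no p. Pearson's r with the macrophage list was between 0.75 (*Krt20*) and 0.88 (*Serpina10*), and rho was between 0.74 and 0.84. Of the other genes tested, 1.99% had an r at or above the lowest of the 8. With the fibroblast list r was between 0.73 (*Krt20*) and 0.87 (*Vcam1*) and rho between 0.69 and 0.83, and 2.15% of other genes had an r at or above the lowest. Without the 2 kidneys farthest from the median of the list, r was between 0.68 and 0.80 for macrophages and between 0.68 and 0.86 for fibroblasts. Within PKD kidneys r was between 0.47 and 0.77 for macrophages and between 0.42 and 0.74 for fibroblasts, and within PKD + Salsalate kidneys between 0.88 and 0.97 and between 0.85 and 0.98. All points share their libraries, the 8 genes move together and are not 8 separate observations, and the part of macrophages and fibroblasts in the marker levels was not tested.

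Values for the other lists were lower or uneven. With the endothelial list r was between -0.03 and 0.47, *Clu* being the highest. With the liver list r was between -0.22 and 0.20, and without PKD replicate 10 between -0.51 (*Vcam1*) and -0.30 (*Serpina10*). With the proximal tubule list r was between -0.56 (*Timp1*) and -0.01 (*Clu*), but the 2 groups differed. Within PKD kidneys it was between -0.30 (*Timp1*) and 0.56 (*Clu*), and only *Timp1* and *Havcr1* were negative. Within PKD + Salsalate kidneys it was between -0.82 (*Vcam1*) and -0.47 (*Clu*). *Havcr1* had r = -0.54 and rho = -0.42, but r was -0.19 within PKD kidneys and -0.74 within PKD + Salsalate kidneys. Without PKD + Salsalate replicate 11, the kidney with the lowest proximal tubule sum, r was -0.40 for *Havcr1*, -0.47 for *Timp1* and 0.27 for *Clu*. With *Csf3r*, the neutrophil gene tested, r was between 0.36 (*Krt20*) and 0.62 (*Timp1*), and 14.5% of other genes had an r at or above the lowest. Without PKD + Salsalate replicate 11 it was between 0.20 (*Spp1*) and 0.55 (*Timp1*).

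**Figure D5:**
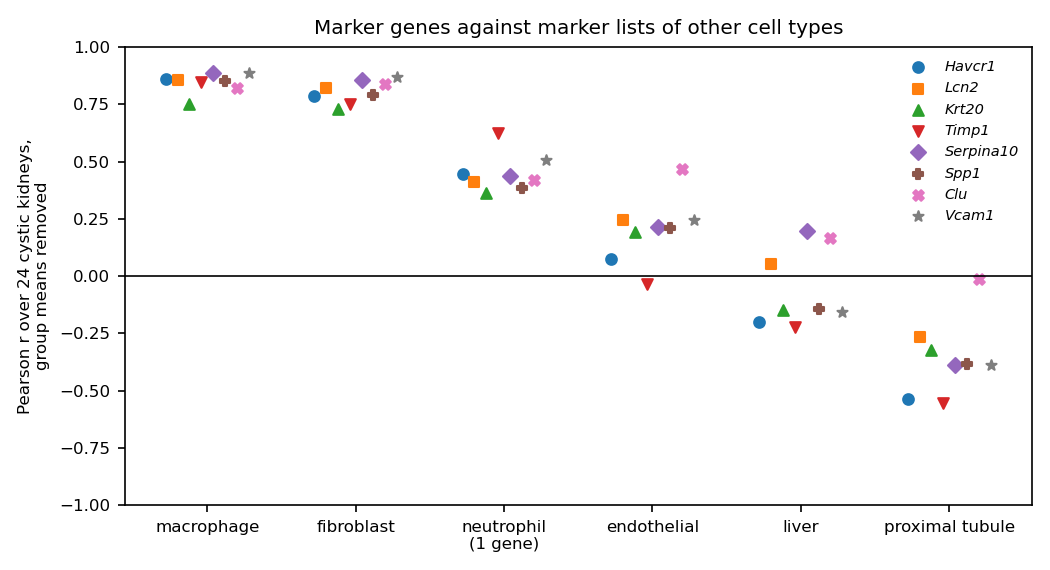
Pearson's r between each marker gene and the mean z-score of 6 cell type lists over 24 cystic kidneys, group means removed, with a symbol per gene. All 8 genes lie between 0.73 and 0.88 for macrophage and fibroblast genes, and between -0.56 and -0.01 for proximal tubule genes. Within PKD kidneys alone r with proximal tubule genes was between -0.30 and 0.56.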

How the data were processed

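The authors deposited raw counts of reads per gene for 32 kidneys, without normalization, in 1 table. Per the study's methods and processing notes, the libraries were directional and made from poly(A) RNA, reads were trimmed with cutadapt 2.10 and aligned to GRCm39 with STAR 2.7.5a, and counted by strand with HTSeq 0.12.4. Between 73.6% and 83.1% of alignments per kidney were counted on genes, and the HTSeq lines for uncounted alignments were left out. Groups came from the sample labels. The labels do not say which kidneys shared a litter or processing day.

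The 13961 genes whose log2 CPM exceeded 1 in 25% of kidneys or more were fitted together with edgeR 4.0.16 in R 4.3.3, with TMM factors and the quasi-likelihood test, 2-sided, adjusted over all genes at a threshold of 0.05. Correlations used log2 CPM with a prior count of 2, and were computed in Python 3.11.15 with scipy 1.17.1. Permutation p-values planned for the relations to cell type lists are not given, because the variation of the members was known when they were picked. Symbols and positions are from GENCODE M39, where 52610 of 53700 identifiers were found. The test was tried on simulated counts first. The members, gene lists, motifs and rules were chosen with earlier results of these data known. Named genes are the 8 members, up to 3 of the largest rises and falls passing the test in each list with genes needed for its count, *Pkd1* and the 3 genes most like each member. *Umod*, *Cst3*, *Igfbp7*, *Cdkn1a*, *Sox9*, *Rela*, *Ntn1*, *Hgf*, *Il18*, *Mif* and *Timd2* were named after their values were seen. So were *Itgav*, *Cd63*, *Mmp12*, *Nfkb1*, *Itgb7*, *Hmox1*, *Fga*, *Wfdc2*, *Ccn2* and *Nupr1*.

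Alternatives were DESeq2 size factors, no filter, edgeR's filterByExpr, only the groups compared, the Wald test of DESeq2 1.42.0, a replicate block, only some wildtype libraries, a prior count of 0.5, and each kidney left out in turn. Leaving out PKD replicate 10 together with PKD + Salsalate replicate 11, and using only some wildtype libraries for the salsalate contrast and the gene lists, were added after the data were seen.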

Additional observations from a re-analysis of the deposited data

How the results depend on the processing

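The 8 markers kept their direction in both comparisons with wildtype under every alternative and every kidney left out. Against only the wildtype libraries without the R ending, *Timp1* moved to 5.07 (PKD) and 4.95 (PKD + Salsalate) from 4.41 and 4.29. *Clu* moved to 0.49 (SE 0.22) and 0.24 (SE 0.22) from 0.83 and 0.58, so its rise depended on the wildtype set. For PKD + Salsalate against PKD, 81 genes passed, and 195 did with only these groups fitted, 199 with DESeq2's Wald test, 145 with only the wildtype libraries ending in R, 257 with only the others and 189 without PKD replicate 10 and PKD + Salsalate replicate 11. With a single kidney left out the number was between 39 and 226. Kidneys that brought it to between 39 and 53 were replicates 1, 9 and 11 of PKD and replicates 1, 5, 6 and 12 of PKD + Salsalate, and it was 226 without PKD + Salsalate replicate 11. The number of markers passing was 0 throughout, except 1 (*Vcam1*) without PKD + Salsalate replicate 11 and with both kidneys left out (adjusted p = 0.0309 by edgeR), so between 0 and 1 over the leave-one-out fits. Same-numbered kidneys of the PKD and PKD + Salsalate groups did not deviate together (r between -0.40 and 0.41 over 12 numbers, 2 over 0.1), so the replicate numbers were not taken as pairs. With a replicate block 48 genes and 0 markers passed. The causes of these shifts were not tested. Wildtype levels of *Krt20*, *Timp1* and *Serpina10* rest on 1 to 22 reads per kidney, so their folds are imprecise, while cystic kidneys had at least 32 reads of each.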

Other observations

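Beside the injury markers, the largest falls among the listed markers of tubule segments, PKD against wildtype, were in genes of the distal convoluted tubule. *Calb1*, a calcium buffer, was lower by the fit at -1.56 (log2, SE 0.12) and *Slc12a3*, the thiazide-sensitive cotransporter, at -1.03 (SE 0.07), while *Avpr2*, the vasopressin receptor of the collecting duct, was higher by 0.38 (SE 0.09) but at 0.20 (adjusted p = 0.145 by edgeR) against the wildtype libraries not ending in R. *Calb1* and *Slc12a3* were lower with either wildtype set. Neither *Slc12a1* of the thick ascending limb (-0.11, adjusted p = 0.410 by edgeR) nor *Aqp2* of the collecting duct (0.24, adjusted p = 0.225 by edgeR) passed, though *Slc12a1* was lower against the libraries not ending in R (-0.43, SE 0.12) and *Aqp2* higher against those ending in R (0.43, SE 0.17). In the proximal tubule the largest falls were *Slc7a13* at -0.80 (SE 0.12), *Miox* at -0.73 (SE 0.08) and *Ggt1* at -0.59 (SE 0.09), each lower with either wildtype set. With salsalate against PKD, 0 of 23 proximal and 0 of 10 distal genes passed by edgeR.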
